A study of Apostichopus japonicus with 12 samples.

Results

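Neuronal and ion channel genes were followed in intestine of an echinoderm, the sea cucumber Apostichopus japonicus, under heat. The members were chosen by words in the authors' gene descriptions: acetylcholine, synaptotagmin, neuropeptide, gamma-aminobutyric acid, glutamate receptor, dopamine, serotonin, glycine receptor, voltage-gated or voltage-dependent, potassium channel, neurexin, neuroligin, synapsin, synaptophysin and transient receptor potential. They matched 353 of the 30221 gene models of the deposited table. The rule also caught proteins that are not particular to neurons, among them a mitochondrial anion channel and an autophagy protein, which are given apart. The study held 12 libraries, 1 per animal, with 3 animals in each of 4 groups. Animals of about 100 g were warmed by a heating rod at 2 °C per hour and then held for 6 h at 26 °C, for 48 h at 26 °C or for 6 h at 30 °C, with the time counted once the water had reached its target. Control animals stayed at 18 °C. The labels gave the controls no time, so the same controls served every heat group.

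Neurons signal at synapses by releasing transmitters from vesicles, and the transmitters act on ligand-gated channels, which are fast, and on G protein-coupled receptors, which are slow. Acetylcholine, glutamate, GABA, monoamines and neuropeptides are all used by echinoderms, whose gut wall holds a nerve plexus between epithelium and muscle. Potassium, calcium and transient receptor potential (TRP) channels set excitability in neurons, and also work in muscle, epithelium and coelomocytes.

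The values are the authors' FPKM (fragments per kilobase of coding length, scaled by a size factor for each library). Between 1788303 and 3956056 reads on genes stood behind each library. The FPKM did not share a common sum. They summed to 2078693, 2132926 and 3014690 in 30 °C animals 1 to 3, and to 1535293, 1009665 and 562397 in controls. A single read on a gene of 1 kb was worth 0.131 to 0.687 FPKM, and the largest values fell at 30 °C and in 26 °C animals 1 of each time. Of the 159 tested members, 13.2% to 49.1% were listed at 0 in a library, most in 26 °C 6 h animal 1 (49.1%) and 30 °C animal 3 (45.9%). The same libraries led for all gene models tested, at 34.9% and 29.9%. With each library thinned to 1700000 reads, 114 ± 27.0 members had a read after 6 h at 26 °C, 162 ± 30.3 after 48 h, 126 ± 35.5 at 30 °C and 139 ± 21.1 in controls (SD, n = 3 animals each). Of all gene models, 14670 ± 2003, 17805 ± 1651, 13928 ± 1264 and 16897 ± 1688 had a read in the same order of groups. The lower counts after 6 h at 26 °C and at 30 °C were thus not particular to the members. The ranges of the members overlapped, and RNA came from intestine as a bulk tissue, so fewer cells of a type and less RNA per cell cannot be told apart.

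Most members were scarce. No read at all was found for 75 members (21.2%, against 15.0% of all gene models), 35 had a read in 1 library only, and 34 had a read in all 12 libraries. Only models averaging 0.5 FPKM or more across the 12 libraries were tested, and 159 members did so, which is 45.04% of members against 61.97% of all gene models. The median tested member averaged 1.89 FPKM, from 67 reads over the 12 libraries, whereas the median over all gene models tested was 3.31 FPKM from 142 reads. Just above that filter stood synaptotagmin-7 BSL78_19124 at 0.525 FPKM and open rectifier potassium channel BSL78_02886 at 0.527 FPKM, and just under it BSL78_10581 at 0.494 FPKM. An average of 20 FPKM or more was reached by 10 members. Of these, 5 were described as acetylcholinesterase, the enzyme that splits acetylcholine, and the most abundant was the mitochondrial anion channel. The classical excitability genes were near the limit of detection: of 21 voltage-gated potassium channel models 2 were tested, and of 4 pore-forming calcium channel (alpha-1) models 1 was tested.

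**Figure D1:**
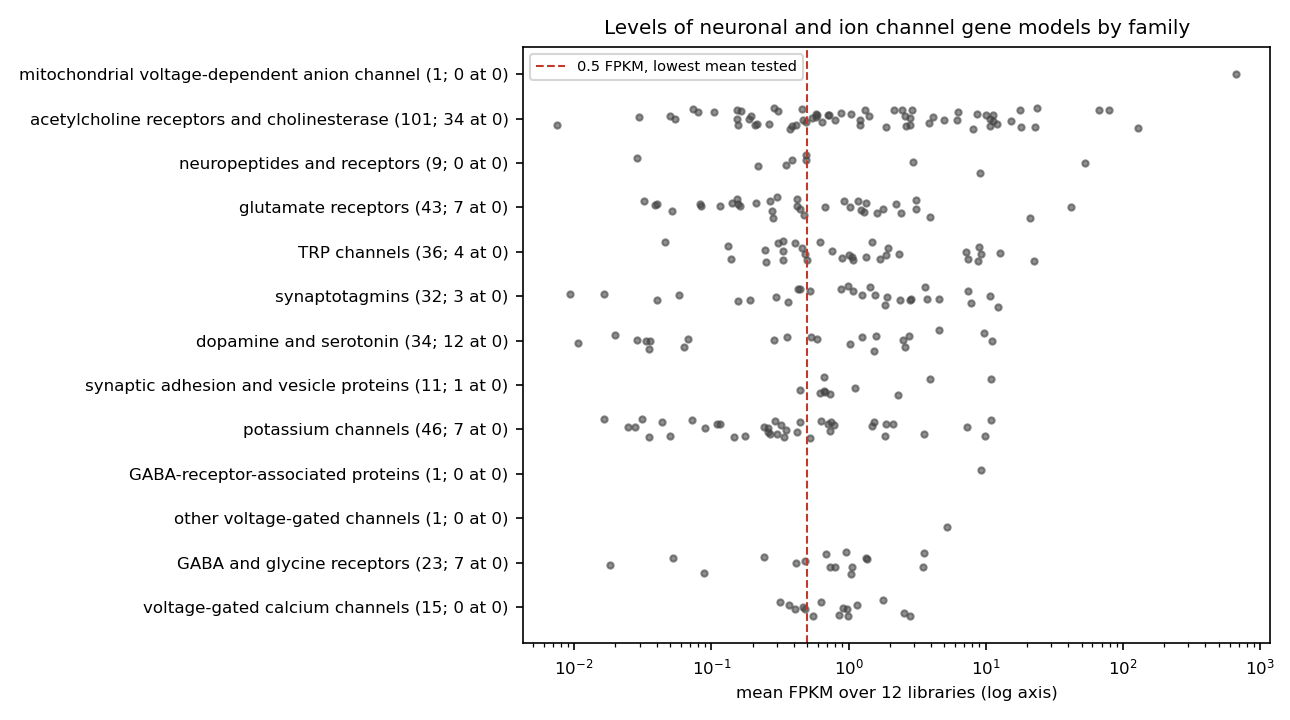
Mean FPKM over the 12 libraries (horizontal log axis) of each gene model with a read, by family; the brackets give the number of models in the family and how many had no read. The dashed line marks 0.5 FPKM, the lowest mean tested, and 159 models lie to its right.

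Members often lay side by side. On the authors' scaffolds 73 runs of adjacent member models were found, holding 163 members, and 67 of the runs were of 1 role. The longest runs had 4 models, among them ionotropic glutamate receptors on scaffold MRZV01000492.1 (211914 to 272801) and glutamate receptor-interacting proteins on MRZV01000066.1 (374112 to 401706). Adjacent models can be tandem copies or pieces of 1 gene, and reads between near-identical copies may have been split by the authors' counting, so the values of single copies in such runs are uncertain. Coordinates are those of the deposited table.

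No member changed by the test in any comparison. With limma on log2(FPKM + 1) and Benjamini-Hochberg adjustment over 18729 gene models, 0 of 159 members passed 0.05 after 6 h at 26 °C against control, where 0.0641% of all gene models tested passed. The count was 0 after 48 h at 26 °C (0.0% of all), 0 at 30 °C (0.651% of all), 0 for 30 °C against 26 °C at 6 h (0.246% of all) and 0 for 48 h against 6 h at 26 °C (0.0107% of all). The F test over the 4 groups also gave 0 members (0.555% of all). At an unadjusted p under 0.05 the 5 comparisons held 9, 5, 13, 18 and 7 members, in that order, or 5.66%, 3.14%, 8.18%, 11.3% and 4.4% of those tested, against 8.06%, 4.55%, 10.4%, 11.7% and 7.01% of all gene models. The F test held 15 members at that level, 9.43% against 10.4%. A second tool, limma's voom on the recovered reads, called 0 members in each.

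The members with the smallest adjusted p were both described as metabotropic glutamate receptor 3. They were BSL78_26151 at 30 °C against control (adjusted p = 0.0664) and BSL78_07515 at 30 °C against 26 °C (adjusted p = 0.0913), in the same limma fit. Leaving out 30 °C animal 3 brought 1 member past 0.05, the calcium channel beta subunit BSL78_02099 described further on. The precision was low: the median standard error of a log2 change was 0.72 for members and 0.70 for all gene models.

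By group means the members as a list were centred near all gene models at 26 °C and above them at 30 °C, where the animals differed widely. The median log2 change of the 159 members was -0.01 after 6 h at 26 °C and 0.12 after 48 h, against -0.08 and 0.03 for all gene models. At 30 °C it was 0.28, against -0.07 for all, and 97 members (61.0%) stood above 0, against 46.0% of all. For 30 °C against 26 °C at 6 h it was 0.41, against 0.00 for all, and for 48 h against 6 h it was 0.15, against 0.12. Values rescaled to a common sum per library turned the sign at 30 °C, to -0.28 for members and -0.85 for all gene models against control and to -0.07 and -0.52 against 26 °C. Without 30 °C animal 2 the median of the members was 0.02 against control and 0.00 against 26 °C. In 30 °C animals 1 to 3 the median tested member held 1.76, 3.17 and 0.678 FPKM. The median of all gene models tested was 2.45, 2.63 and 1.94 FPKM there. In control animals 1 to 3 these medians were 1.13, 0.987 and 1.05 FPKM for members and 2.44, 2.62 and 2.58 FPKM for all. The distance between members and all gene models at 30 °C against control was 0.36 as deposited and 0.56 after rescaling.

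**Figure D2:**
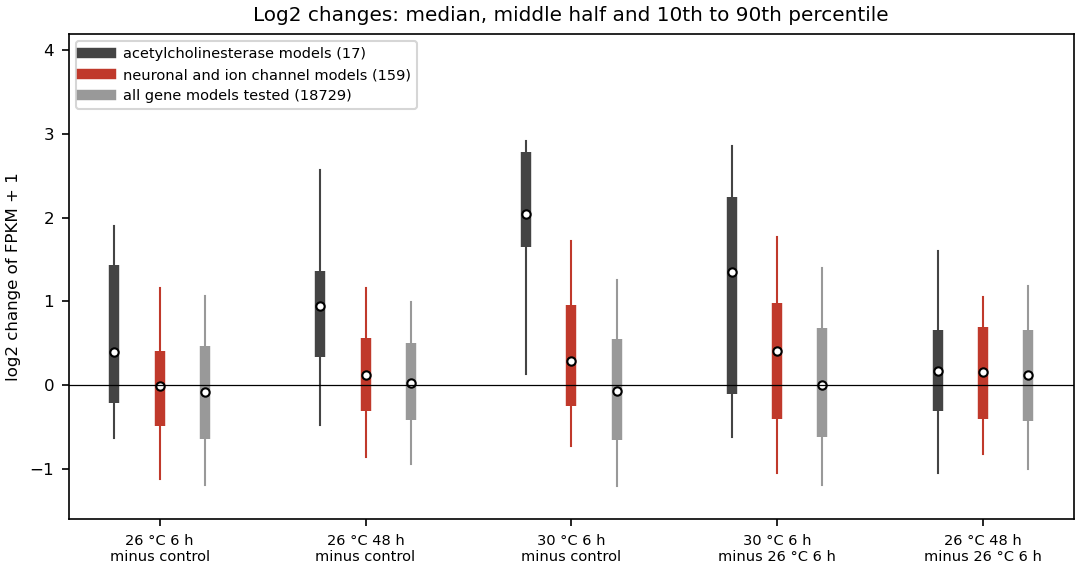
Log2 changes of FPKM + 1 (vertical axis) in the 5 comparisons for the 17 tested acetylcholinesterase models, the 159 tested members and the 18729 gene models tested. Circles are medians, thick bars the 25th to 75th percentile and thin bars the 10th to 90th percentile; the acetylcholinesterase models stand highest at 30 °C, with a median of 2.04 against control.

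Members whose groups did not overlap were about as frequent as among gene models at large, or less frequent. After 6 h at 26 °C, 4 members stood above and 11 below every control animal, against 4.81% and 7.15% of all gene models (members 2.52% and 6.92%). After 48 h, 7 stood above and 8 below, against 5.84% and 4.85% of all (members 4.4% and 5.03%). At 30 °C, 10 stood above and 7 below, against 6.28% and 7.98% of all (members 6.29% and 4.4%). For 30 °C against 26 °C the counts were 11 above and 2 below, against 7.01% and 5.88% of all (members 6.92% and 1.26%). For 48 h against 6 h they were 9 above and 2 below, against 7.87% and 4.76% of all (members 5.66% and 1.26%). Several of these counts depended on scaling. With a common sum per library, 0 members stood above and 14 below every control animal at 30 °C, against 1.49% and 24.0% of all gene models, and the 14 held the earlier 7. For 30 °C against 26 °C the counts became 4 above and 10 below, against 2.19% and 16.5% of all. After 48 h at 26 °C, 1 member was left below every control, against 2.26% of all, and after 6 h 2 were above, against 2.43% of all.

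Acetylcholinesterase made up 29 models and 43.13% of the members' mean FPKM once the anion channel was set aside, with a share in single animals from 5.31% in control animal 1 to 69.02% in 26 °C 6 h animal 1. Of these models 28 carried the carboxylesterase domain in the deposited annotation, 17 were tested and 6 had no read. They belong to the same enzyme superfamily as the carboxylesterases of gut and liver, and a description by similarity does not separate the synaptic enzyme from its relatives. The summed FPKM was 909, 184 and 580 in 26 °C 6 h animals 1 to 3, 92.0, 187 and 422 at 48 h, 749, 1078 and 58.0 at 30 °C, and 32.6, 807 and 108 in controls. All 4 groups overlapped, and 30 °C animal 3 and control animal 2 stood far from the other animals of their groups. Of the 17 tested models, 30 °C animal 3 was the highest of its group in 0, and control animal 2 was the highest control in 13.

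The spread between animals of a group was wide. The median SD within a group was 1.93 on the log2 scale for the 17 models, against 0.90 for all 159 members and 0.87 for all gene models. At 30 °C against control, 15 of 17 models had a log2 change above 0, with a median of 2.04, whereas 82 of the other 142 members did, with a median of 0.15. For these others it was -0.08 without 30 °C animal 2, 0.40 without 30 °C animal 3 and -0.35 with a common sum. Of all gene models tested, 46.0% stood above 0. In control animals 1 and 3, 10 and 12 of the 17 models were at 0. A model at 0 in every control passes the filter only through heated animals and cannot fall below 0. Several of the 17 lie side by side, so the count of 15 is not one of independent models. The median standard error of the 17 changes was 1.29, the smallest adjusted p was 0.363 in limma, and the groups overlapped in all 17. The median of the acetylcholinesterase models was 3.06 without 30 °C animal 3, 1.43 without 30 °C animal 2 and 2.83 without control animal 2, and 1.5 with a common sum. It was 3.98 with voom and 3.23 with a pseudocount of 0.1. At 30 °C against 26 °C it was 1.35, with 12 of 17 above 0, and became 3.21 without 30 °C animal 3 and 0.48 with a common sum. After 6 h at 26 °C the median was 0.40, and it was -0.23 without animal 1 of that group, and after 48 h it was 0.95, and 0.38 without animal 3 of that group. With voom these were 1.56 and 2.38, and with a pseudocount of 0.1 they were 1.07 and 1.88.

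Summed markers of another cell type went with this sum in part, while single markers ran in different directions. Digestive enzymes and epithelial markers, 49 models, summed to 807, 1407 and 2333 FPKM in 26 °C 6 h animals 1 to 3, to 900, 1032 and 1664 at 48 h, to 4475, 6954 and 950 at 30 °C, and to 953, 2330 and 844 in controls. They were low in 30 °C animal 3 and high in control animal 2, as the acetylcholinesterase models were, while in 26 °C 6 h animal 1 they were the lowest of that group and acetylcholinesterase the highest. Much of the 30 °C sum was a trypsin-like protease, BSL78_00549, which averaged 2728 FPKM there and 304 FPKM in controls. Villin-1-like BSL78_02148 ran the other way, at 173 FPKM against 476 FPKM. Aminopeptidase N BSL78_07492 and carboxypeptidase B BSL78_29993 were highest at 26 °C 6 h, with means of 334 and 299 FPKM. The 42 other models with a carboxylesterase domain summed to 224, 274 and 775 FPKM at 26 °C 6 h, to 227, 363 and 474 at 48 h, to 779, 542 and 272 at 30 °C, and to 403, 616 and 90.5 in controls. Control animal 2 was the highest control in 22 of the 31 of these that were tested. The part of gut epithelium in the acetylcholinesterase levels was not tested.

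**Figure D3:**
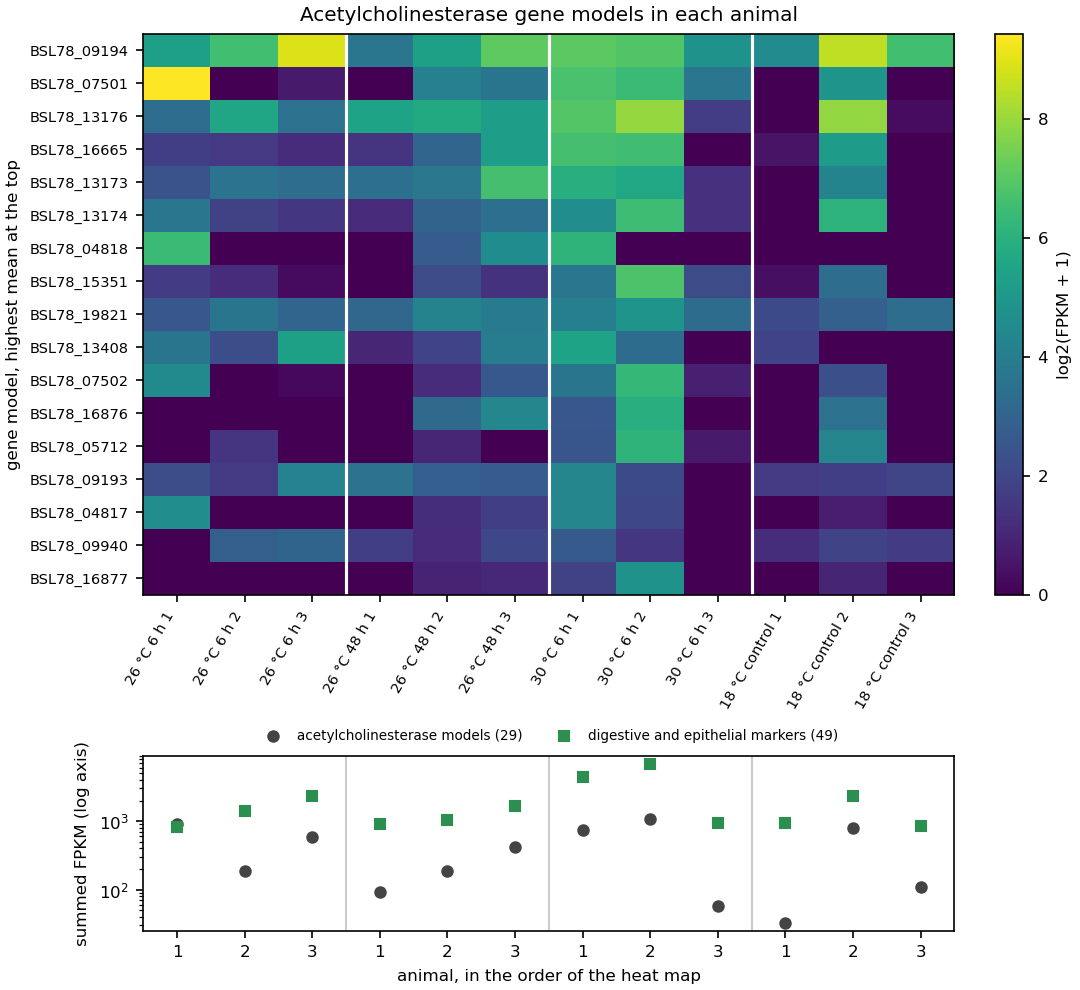
Log2(FPKM + 1) of the 17 tested acetylcholinesterase models (rows) in the 12 animals (columns, upper panel), and summed FPKM on a log axis of the 29 acetylcholinesterase models (circles) and of 49 digestive and epithelial markers (squares) in the same animals (lower panel). Columns for 30 °C animal 3 and control animals 1 and 3 are mostly dark, and those for 30 °C animals 1 and 2 and control animal 2 are mostly brighter.

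The most abundant acetylcholinesterase model, BSL78_09194 (scaffold MRZV01000270.1, 41365 to 49458), held 39.2, 94.5 and 483 FPKM in 26 °C 6 h animals, 11.9, 40.4 and 135 at 48 h, 133, 115 and 26.9 at 30 °C, and 22.5, 364 and 93.3 in controls. It had a read in every animal and no order between the groups. BSL78_07501 (MRZV01000209.1, 486117 to 491195) held 688, 0 and 0.620 FPKM at 26 °C 6 h, 0, 16.3 and 11.8 at 48 h, 106, 85.5 and 12.1 at 30 °C, and 0, 28.6 and 0 in controls. A single animal thus carried nearly all of its 26 °C 6 h level, and 30 °C was the one group in which every animal had reads. Its log2 change at 30 °C against control was 4.0 (SE 2.11, 95% interval -0.53 to 8.53, adjusted p = 0.546 in limma).

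BSL78_15351 (MRZV01000559.1, 48262 to 55004) held 2.21, 1.28 and 0.212 FPKM at 26 °C 6 h, 0, 3.58 and 1.60 at 48 h, 12.1, 110 and 3.41 at 30 °C, and 0.321, 9.37 and 0 in controls. At 30 °C all animals stood above all 26 °C 6 h animals but not above control animal 2, and the first of these did not hold with a common sum. The log2 change was 3.17 against 26 °C (SE 1.12, adjusted p = 0.281) and 2.96 against control (SE 1.12, adjusted p = 0.363) in limma. BSL78_13408 (MRZV01000450.1, 701999 to 706442) held 11.7, 3.85 and 39.9 FPKM at 26 °C 6 h, 1.04, 2.74 and 14.8 at 48 h, 42.8, 9.16 and 0 at 30 °C, and 2.70, 0 and 0 in controls. The 26 °C 6 h animals stood above every control, with a log2 change of 3.14 (SE 1.23, adjusted p = 0.532 in limma).

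Receptors for acetylcholine were numerous as models and low in level. Nicotinic subunits, which form fast cation channels, had 53 models, 23 of them tested and 19 without a read. Their summed FPKM was 72.5, 64.1 and 35.8 in 26 °C 6 h animals, 37.1, 87.3 and 109 at 48 h, 111, 212 and 42.3 at 30 °C, and 63.5, 56.7 and 61.3 in controls. The 30 °C animals spread over a wider range than the controls and enclosed it. At 30 °C against control 14 of 23 had a log2 change above 0, with a median of 0.41, which became -0.08 without 30 °C animal 2 and -0.20 with a common sum. The alpha-3-like subunit BSL78_16940 held 4.19, 12.9 and 3.01 FPKM at 26 °C 6 h, 0, 1.54 and 1.38 at 48 h, 1.10, 4.53 and 3.37 at 30 °C, and 0, 0.271 and 2.58 in controls. Its 26 °C 6 h animals stood above every control (log2 change 2.00, SE 0.70, adjusted p = 0.485 in limma), though not with a common sum, and the 48 h animals stood below every 6 h animal under both scalings (-1.86, adjusted p = 0.609). Another alpha-3-like model, BSL78_16509, averaged 8.15 ± 5.78 FPKM after 48 h at 26 °C and 2.12 ± 1.22 FPKM in controls (SD, n = 3 each; log2 change 1.44, adjusted p = 1.0 in limma), and its groups overlapped with a common sum. The alpha-9-like model BSL78_29267, with 26 reads in all, averaged 0.219 ± 0.379 FPKM after 48 h and 7.36 ± 8.24 FPKM after 6 h at 26 °C (log2 change -2.35, adjusted p = 0.54 in limma).

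Muscarinic receptors, which couple to G proteins, had 18 models, 9 of them without a read and 2 tested. Their sum was 9.91, 2.31 and 6.87 FPKM at 26 °C 6 h, 6.87, 7.71 and 3.5 at 48 h, 4.57, 14.1 and 2.55 at 30 °C, and 1.62, 3.2 and 3.59 in controls. The heat groups overlapped the controls. The vesicular acetylcholine transporter, which loads acetylcholine into vesicles, had 1 model, with a mean of 0.384 FPKM at 26 °C 6 h, 1.34 at 48 h, 0.553 at 30 °C and 0.538 in controls, and it was at 0 in 5 of 12 animals. Choline O-acetyltransferase, the enzyme that makes acetylcholine and which lies outside the rule, had 3 models, each at a mean under 0.5 FPKM.

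Glutamate receptors held both models with the smallest adjusted p-values. Ionotropic receptors, the fast channels, had 19 models, 5 of them tested and 5 without a read. Their sum was 24.8, 37.6 and 24.8 FPKM in 26 °C 6 h animals, 36.8, 84.8 and 37.1 at 48 h, 89.2, 164 and 136 at 30 °C, and 124, 38.9 and 52.3 in controls. All 30 °C animals stood above all 26 °C 6 h animals, and control animal 1 stood among the 30 °C animals. At 30 °C against control, 5 of 5 tested models had a log2 change above 0 (median 0.93), which with a common sum became 3 of 5 (median 0.13).

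Most of that sum came from a pair of models, described as subunits of the AMPA type in vertebrates, in the run on MRZV01000492.1. Glutamate receptor 2 BSL78_14199 (211914 to 223172) held 9.33, 19.4 and 10.5 FPKM at 26 °C 6 h, 15.4, 47.3 and 18.8 at 48 h, 44.5, 90.9 and 99.3 at 30 °C, and 90.6, 28.3 and 28.6 in controls. Every 30 °C animal stood above every 26 °C 6 h animal, and every 26 °C 6 h animal stood below every control, under both scalings. The log2 change was 2.48 for 30 °C against 26 °C (SE 0.65, 95% interval 1.09 to 3.87, adjusted p = 0.141) and -1.68 for 26 °C 6 h against control (SE 0.65, adjusted p = 0.531) in limma. Glutamate receptor 3 BSL78_14202 (265091 to 272801) held 10.6, 11.7 and 10.5 FPKM at 26 °C 6 h, 19.0, 28.4 and 16.1 at 48 h, 34.0, 45.7 and 31.9 at 30 °C, and 22.6, 6.63 and 15.7 in controls. The 30 °C animals stood above all animals of the 3 other groups. That did not hold against control with a common sum, where the log2 change was 0.13 in place of 1.38 (SE 0.54, adjusted p = 0.378 in limma). Against 26 °C 6 h, the separation held under both scalings for 30 °C and for 48 h. Of the other models of the run, BSL78_14201 averaged 3.95 FPKM over all animals and BSL78_14200 was below the filter at 0.281 FPKM.

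Metabotropic glutamate receptors, which act through G proteins, had 20 models, 7 of them tested and 2 without a read. Their sum was 7.07, 19.3 and 13.4 FPKM at 26 °C 6 h, 12.2, 19.3 and 17.7 at 48 h, 10.6, 25.6 and 24.2 at 30 °C, and 9.63, 22.2 and 19.1 in controls, so the groups overlapped. Single models ran in opposite directions. BSL78_26151, described as metabotropic glutamate receptor 3, a receptor that lowers cyclic AMP in mammals (MRZV01001574.1, 123483 to 129379), held 0, 1.38 and 1.52 FPKM at 26 °C 6 h, 2.49, 1.87 and 0.208 at 48 h, 0 in each 30 °C animal, and 2.76, 6.55 and 9.80 in controls. Every heated animal stood below every control, except that with a common sum the 48 h animals overlapped the controls. The 89 reads of the controls against none at 30 °C set the mean level at least 3.15-fold lower at 30 °C, with a floor of 3 reads in each library. Without control animal 3 the bound was 2.30-fold. The fitted log2 change was -2.75 (SE 0.61, 95% interval -4.07 to -1.44, adjusted p = 0.0664 in limma). After 6 h and 48 h at 26 °C it was -1.89 (adjusted p = 0.418) and -1.55 (adjusted p = 1.0).

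BSL78_07515 (MRZV01000210.1, 224105 to 224802), also described as metabotropic glutamate receptor 3, held 0, 0 and 1.31 FPKM at 26 °C 6 h, 1.79, 6.03 and 3.28 at 48 h, 3.82, 8.64 and 9.35 at 30 °C, and 0.661, 1.88 and 0.670 in controls. The 30 °C animals stood above every 26 °C 6 h animal under both scalings and above every control as deposited, not with a common sum. The log2 change was 2.57 against 26 °C 6 h (SE 0.59, 95% interval 1.30 to 3.83, adjusted p = 0.0913) and 1.97 against control (SE 0.59, adjusted p = 0.219) in limma, from 65 reads over the 12 libraries. For 48 h against 6 h at 26 °C it was 1.73 (adjusted p = 0.556). The F test over the 4 groups gave its smallest adjusted p among members for this model, 0.185. Glutamate receptor-interacting protein, a PDZ scaffold of AMPA receptors in mammals, had 4 adjacent models with 157 reads between them. Of these BSL78_02987 averaged 2.02 ± 0.446 FPKM after 6 h and 1.77 ± 1.11 FPKM after 48 h at 26 °C, against 0.384 ± 0.393 FPKM in controls (SD, n = 3 each), and its animals stood above every control at both times. The log2 change was 1.16 (adjusted p = 0.674) and 0.97 (adjusted p = 1.0) in limma.

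**Figure D4:**
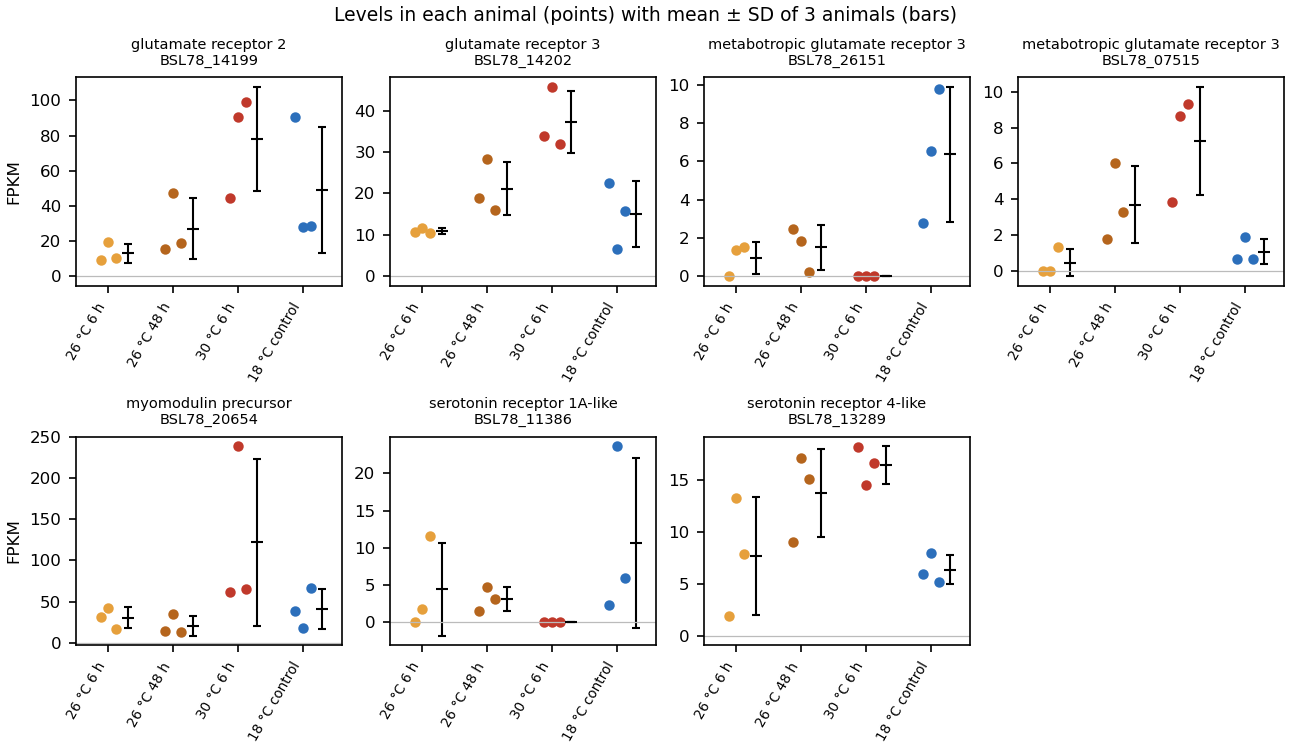
FPKM (vertical axis) in each of the 3 animals of the 4 groups for 7 named models, with the mean and SD beside the points. Animals at 30 °C are at 0 for BSL78_26151 and BSL78_11386, and stand above all 26 °C 6 h animals for both ionotropic glutamate receptors, BSL78_07515, BSL78_20654 and BSL78_13289. For BSL78_20654 and BSL78_13289 this holds as deposited, not with a common sum.

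GABA and glycine receptors, which mediate inhibition in most animals studied, were sparse, with 525 reads over 23 models and 12 libraries. GABA-A receptors had 5 models, GABA-B receptors 16 and glycine receptors 2, of which 3, 6 and 1 were tested. The GABA-B subunit 1 model BSL78_14472 had 141 reads, all in 26 °C 6 h animal 2 (41.9 FPKM), and 0 reads in each of the other 11 animals, so its mean of 14.0 ± 24.2 FPKM in that group rests on 1 library. The GABA-A gamma-2-like model BSL78_26881 likewise reached 23.2 FPKM in 48 h animal 1 and 0 to 6.10 FPKM in the other animals. Its neighbour BSL78_26882, on the same scaffold and strand, held 4.89, 0.785 and 1.63 FPKM at 48 h, against 0, 0 and 0.174 FPKM in controls, from 21 reads in all (log2 change 1.52, SE 0.55, adjusted p = 1.0 in limma). The 48 h animals stood above every control under both scalings. The GABA-B subunit 1-like model BSL78_13542, with 18 reads, held 7.57, 0.945 and 1.26 FPKM after 48 h and 0 in each animal after 6 h at 26 °C (log2 change 1.75, adjusted p = 0.622 in limma). Most of the 48 h level came from animal 1.

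Serotonin receptors, which regulate gut movement and secretion in vertebrates, had 23 models, 8 of them tested and 7 without a read. Their sum did not separate the groups, with 16.3, 27.7 and 27.8 FPKM at 26 °C 6 h, 18.8, 39.9 and 29.7 at 48 h, 32.2, 27.9 and 23.7 at 30 °C, and 14.7, 40.2 and 21.4 in controls. The receptor 4-like model BSL78_13289, whose mammalian counterpart raises cyclic AMP (MRZV01000445.1, 376429 to 377544), held 1.92, 13.2 and 7.80 FPKM at 26 °C 6 h, 8.95, 17.1 and 15.1 at 48 h, 18.1, 14.5 and 16.6 at 30 °C, and 5.92, 7.92 and 5.18 in controls. As deposited, the 48 h and the 30 °C animals stood above every control, and with a common sum neither did. The 30 °C animals also stood above every 26 °C 6 h animal as deposited only. It was the most abundant serotonin receptor model (at 30 °C 16.4 ± 1.82 FPKM, against 6.34 ± 1.42 FPKM in controls; adjusted p = 0.496 in limma).

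The receptor 1A-like model BSL78_11386, of a class that lowers cyclic AMP in mammals (MRZV01000359.1, 100475 to 101398), held 0, 1.75 and 11.5 FPKM at 26 °C 6 h, 1.58, 4.73 and 3.16 at 48 h, 0 in each 30 °C animal, and 2.33, 23.6 and 5.92 in controls. The controls had 91 reads and the 30 °C animals none. The control mean was 4.14-fold the 30 °C floor of 3 reads per library, or 1.61-fold without control animal 2. Control animal 1 lay under that floor of 2.57 FPKM. The fitted log2 change was -3.05 (SE 0.88, adjusted p = 0.198 in limma). The receptor 1-like model BSL78_09400 held 6.49, 4.27 and 2.39 FPKM at 30 °C, against 0, 0.320 and 2.13 FPKM in controls (log2 change 1.67, adjusted p = 0.497 in limma), and overlapped them with a common sum. Another receptor 1-like model, BSL78_28939, held 2.54, 1.59 and 3.11 FPKM after 48 h, against 0, 0.445 and 0.634 FPKM in controls (1.33, adjusted p = 1.0 in limma). Dopamine receptors had 8 models, 4 of them without a read and 2 tested, summing to 1.74 ± 0.771 FPKM after 6 h and 3.23 ± 1.01 after 48 h at 26 °C, 3.58 ± 4.27 at 30 °C and 5.83 ± 3.04 in controls. The remaining monoamine models were dopamine beta-hydroxylase, a serotonin transporter with no read and BSL78_24917. The last is described as N-acetylserotonin O-methyltransferase-like, but the deposited domain is Maf, and it averaged 4.70 ± 4.35 FPKM after 6 h and 12.2 ± 6.09 after 48 h at 26 °C, 16.6 ± 12.3 at 30 °C and 5.04 ± 2.79 in controls.

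Among neuropeptide genes the myomodulin precursor led. Myomodulins, known from molluscs, are peptides that modulate muscle contraction. BSL78_20654 (MRZV01000929.1, 214416 to 218655) held 31.2, 42.2 and 16.8 FPKM at 26 °C 6 h, 14.3, 34.3 and 13.1 at 48 h, 61.0, 239 and 65.7 at 30 °C, and 38.0, 17.8 and 66.9 in controls. All 30 °C animals stood above all 26 °C 6 h animals as deposited, not with a common sum, and control animal 3 lay within the 30 °C range. The mean of 122 ± 101 FPKM at 30 °C rests largely on animal 2. That animal was the highest in the neuron markers outside the rule (453 FPKM summed). It was also the highest in digestive markers (6954 FPKM) and muscle markers (2731 FPKM), and the lowest 30 °C animal in coelomocyte markers (1530 FPKM). The 8 neuropeptide receptor models, for peptides such as neuropeptide Y and capa, summed to 10.5 ± 3.66 FPKM after 6 h and 12.5 ± 3.58 after 48 h at 26 °C, 18.6 ± 5.75 at 30 °C and 14.5 ± 3.75 in controls, and 2 of them were tested.

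**Figure D5:**
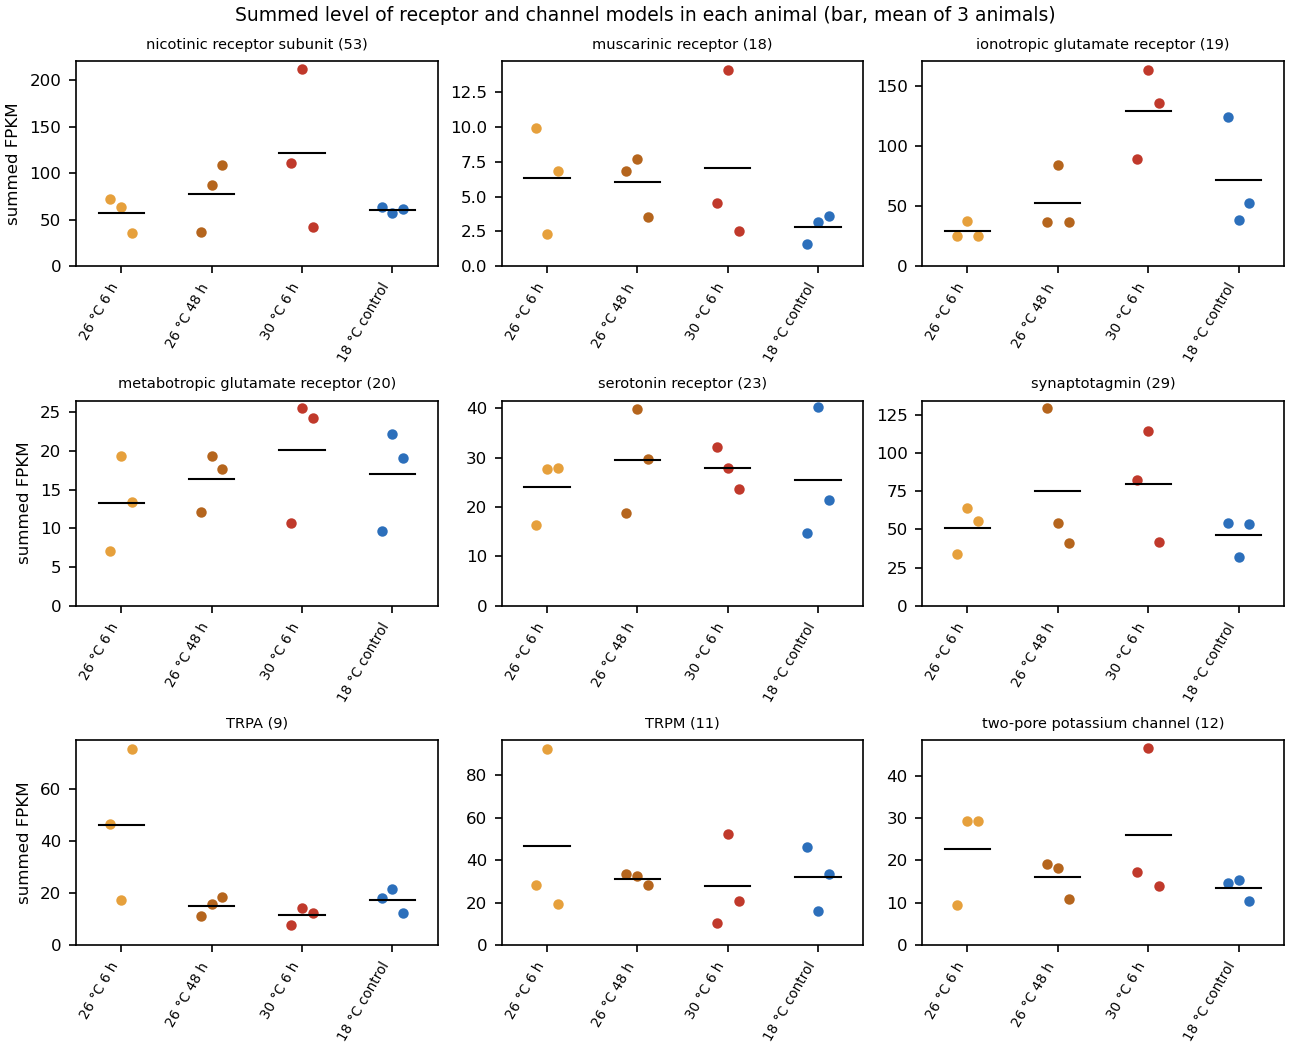
Summed FPKM (vertical axes, from 0) of 9 roles in each animal of the 4 groups, with the number of models in brackets and bars at the mean of 3 animals. Ionotropic glutamate receptors are higher in all 30 °C animals than in all 26 °C 6 h animals.

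Synaptotagmins, calcium sensors of vesicle release, had 29 models, 18 of them tested. Their sum was 33.7, 63.9 and 55.6 FPKM at 26 °C 6 h, 130, 54.5 and 41.0 at 48 h, 82.4, 115 and 41.7 at 30 °C, and 54.3, 32.0 and 53.6 in controls. The highest sum, in 48 h animal 1, came from synaptotagmin-7 BSL78_27942, a sensor also known from lysosome exocytosis in mammals, with 95.6 FPKM there and between 0.289 and 6.96 FPKM in the other 11 animals. Synaptotagmin I BSL78_06311, the sensor of fast release (MRZV01000164.1, 262254 to 271344), held 4.12, 7.68 and 18.3 FPKM at 26 °C 6 h, 0.579, 14.7 and 11.8 at 48 h, 22.8, 28.4 and 13.6 at 30 °C, and 5.13, 8.81 and 11.3 in controls. The 30 °C animals stood above every control as deposited, with an adjusted p of 0.635 in limma, and overlapped them with a common sum. BSL78_26146, synaptotagmin-2-like, averaged 1.07 ± 1.35 FPKM after 48 h and 5.17 ± 1.58 FPKM in controls (log2 change -1.75, SE 0.80, adjusted p = 1.0 in limma), without overlap as deposited only.

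The synaptotagmin-like protein 5-like model BSL78_06114, of a family that binds Rab27 on secretory granules in mammals (MRZV01000158.1, 149457 to 171831), held 4.39, 6.09 and 10.1 FPKM at 26 °C 6 h, 15.3, 13.8 and 7.73 at 48 h, 1.26, 2.42 and 1.54 at 30 °C, and 3.78, 21.9 and 5.30 in controls. The 30 °C animals stood below every animal of the other 3 groups. Against 26 °C 6 h the log2 change was -1.48 (SE 0.63, 95% interval -2.84 to -0.12, adjusted p = 0.377 in limma), and the separation from 26 °C 6 h and from controls held with a common sum. Synaptophysin BSL78_18758, a vesicle membrane protein, was even across groups as deposited, with 11.2 ± 4.41 FPKM after 6 h and 13 ± 2.88 after 48 h at 26 °C, 10.3 ± 4.24 at 30 °C and 9.36 ± 3.05 in controls. Synapsin-2-like BSL78_09503, which tethers vesicles, averaged 8.49 ± 6.08 FPKM after 6 h and 2.38 ± 1.15 after 48 h at 26 °C, 2.14 ± 1.08 at 30 °C and 2.71 ± 0.914 in controls. For both models the 30 °C animals stood below every 26 °C 6 h animal with a common sum, and overlapped them as deposited. The 8 neurexin and neuroligin models, which join the membranes of a synapse, summed to 2.51 ± 1.20, 3.92 ± 3.10 and 8.84 ± 1.99 FPKM in the same order of heat groups, and to 4.32 ± 1.5 in controls (SD, n = 3 each), with a log2 change above 0 at 30 °C in 6 of 6 tested models (median 0.28, smallest adjusted p 0.638 in limma). With a common sum this became 2 of 6 (median -0.32), and without 30 °C animal 2 it was 3 of 6 (median 0.21).

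TRP channels, cation channels of which several members sense temperature or chemicals in other animals, had 36 models with TRPC4-associated protein counted in, 19 of them tested. TRPA channels, which respond to irritants and in some animals to heat, had 9 models, 6 of them tested. Their sum was 46.5, 17.2 and 75.5 FPKM at 26 °C 6 h, 11, 15.9 and 18.5 at 48 h, 7.72, 14.4 and 12.2 at 30 °C, and 18.3, 21.6 and 12.4 in controls. The high values of 26 °C 6 h animals 1 and 3 came mainly from BSL78_20112, a TRPA1-like model chosen after its values were seen, with 32.3, 0 and 51.6 FPKM in that group and between 0 and 7.72 FPKM in the other 9 animals. TRPM channels had 11 models, 7 of them tested, with sums of 28.4, 92.4 and 19.5 FPKM at 26 °C 6 h, 33.5, 32.5 and 28.1 at 48 h, 10.6, 52.1 and 20.7 at 30 °C, and 46.4, 16 and 33.5 in controls. The most abundant, TRPM2-like BSL78_07509, averaged 16.7 ± 9.55 FPKM after 6 h and 11.5 ± 5.38 after 48 h at 26 °C, 9.08 ± 9.76 at 30 °C and 13.8 ± 3.22 in controls. TRPM3-like BSL78_20947, whose mammalian counterpart is opened by heat, had 1.82, 0.661 and 0.727 FPKM at 26 °C 6 h, 0, 1.01 and 0.697 at 48 h, 0 in each 30 °C animal, and 3.31, 1.10 and 1.49 in controls. With 42 reads in the controls its mean level was at least 2.02-fold lower at 30 °C, at a floor of 3 reads per library. Without control animal 1 this bound was 1.33-fold. Against 26 °C 6 h the bound was 1.10-fold, and 0.715-fold without animal 1 of that group, so it secures no lower level there. The fitted log2 change against 26 °C 6 h was -1.01 (SE 0.52, adjusted p = 0.478 in limma). The 2 TRPV models had 35 reads and were not tested.

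Voltage-gated calcium channels open on depolarisation and admit the calcium that triggers release and contraction. Their 15 models held 671 reads over the 12 libraries, and 10 were tested. The beta subunit model BSL78_02099 (MRZV01000044.1, 709119 to 748160, coding length 255) held 0 at 26 °C 6 h, 0, 1.54 and 1.38 FPKM at 48 h, 17.6, 10.9 and 0 at 30 °C, and 0, 0 and 2.06 in controls. These levels come from 22 reads in all, 14 of them at 30 °C. It was the member called when 30 °C animal 3, which had no read, was left out, with an adjusted p of 0.0272 against control and 0.018 against 26 °C 6 h in limma. With every animal kept, its log2 change against control was 2.06 (SE 0.92, adjusted p = 0.455 in limma). The alpha-2/delta model BSL78_23416 averaged 4.35 ± 4.73 FPKM after 6 h and 2.17 ± 2.65 after 48 h at 26 °C, 2.96 ± 0.162 at 30 °C and 0.740 ± 0.407 in controls, and its 30 °C animals stood above every control as deposited only.

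Potassium channels, which return the membrane to rest, had 46 models, 15 of them tested. The calcium-activated alpha subunit BSL78_20598 averaged 10.5 ± 5.04 FPKM after 6 h and 9.60 ± 3.35 after 48 h at 26 °C, 9.88 ± 6.85 at 30 °C and 13.5 ± 18.7 in controls, where animal 2 alone reached 35.2 FPKM. The subfamily K member 16-like background channel BSL78_02887 averaged 10.7 ± 5.72, 10.7 ± 4.56 and 9.70 ± 6.71 FPKM in the same order of heat groups and 8.07 ± 1.04 in controls, and the groups overlapped for both. Potassium channel regulatory protein BSL78_16519, a cytoplasmic protein with a channel tetramerisation domain, held 0 in each 26 °C 6 h animal, 0.707, 17.5 and 3.30 FPKM at 48 h, 54.3, 7.45 and 0 at 30 °C, and 0, 2.97 and 1.59 in controls. After 48 h its mean was 4.52-fold the floor of 3 reads per library after 6 h at 26 °C, or 1.26-fold without 48 h animal 2. The level of 48 h animal 1 lay under that floor of 1.58 FPKM. The fitted change of 2.36 did not pass the test (adjusted p = 0.733 in limma). The voltage-gated proton channel BSL78_12197, which lets protons out of phagocytes in mammals, held 0, 0 and 4.8 FPKM at 26 °C 6 h, 2.82, 3.69 and 7.28 at 48 h, 3.00, 7.42 and 5.52 at 30 °C, and 11.4, 4.07 and 12.7 in controls. The heat groups overlapped the controls as deposited, and with a common sum the 30 °C animals stood below every control. After 6 h at 26 °C its log2 change against control was -2.41 (adjusted p = 0.38 in limma).

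The models caught by wording alone are given last. The voltage-dependent anion channel 2-like model BSL78_01210, the porin of the outer mitochondrial membrane, averaged 563 ± 52.2 FPKM after 6 h and 712 ± 128 after 48 h at 26 °C, 806 ± 195 at 30 °C and 601 ± 169 in controls (SD, n = 3 each). Its log2 change at 30 °C was 0.43 (SE 0.49, adjusted p = 0.813 in limma), and its 22023 reads were by far the most of any member. GABA receptor-associated protein-like 2 BSL78_05003, an autophagy protein in spite of its name, averaged 6.94 ± 7.07 FPKM after 6 h and 5.45 ± 4.05 after 48 h at 26 °C, 17.4 ± 5.08 at 30 °C and 7.08 ± 6.28 in controls. The TRPC4-associated protein model averaged 10.4 ± 2.37, 8.67 ± 0.652, 8.05 ± 1.68 and 8.45 ± 2.94 FPKM in 26 °C 6 h, 26 °C 48 h, 30 °C and control animals.

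Related lists gave the same count of calls. Of 110 other ion channel models 60 were tested and 0 passed in any comparison, and of 165 other transmitter and peptide receptor models 45 were tested and 0 passed, in limma. In the same comparisons 0.0% to 0.651% of all gene models passed, so a count of 0 does not set lists of this size apart. The label of the members was checked on 12 neuron markers outside the rule. Their sum was 128, 135 and 215 FPKM at 26 °C 6 h, 157, 200 and 135 at 48 h, 301, 453 and 163 at 30 °C, and 167, 125 and 137 in controls. Most of it was ELAV-like 3 BSL78_03451, an RNA-binding protein, at a mean of 145 FPKM, followed by neuroendocrine convertase 2 BSL78_00724, which cleaves peptide precursors, at 22.8 FPKM. The enzymes and vesicle transporters that define transmitter types averaged 0.404 FPKM or less, and the vesicular glutamate transporter had no read. Muscle markers, 51 models, summed to 803 to 933 FPKM at 26 °C 6 h, 1339 to 1737 at 48 h, 1271 to 2731 at 30 °C and 734 to 1454 in controls, and 52 coelomocyte markers to 680 to 3214, 1118 to 4703, 1530 to 3417 and 1648 to 2822 FPKM in that order of groups. The list of muscle markers did not rise as its sum did. Its 34 tested models had a median log2 change against control of -0.07 after 48 h and -0.28 at 30 °C. Much of the coelomocyte sum was a complement component 3-2 model, BSL78_25602, at a mean of 1086 FPKM. The part of muscle and coelomocytes in the members' levels was not tested. In these marker lists 1 model passed, the alpha-amylase 4N model BSL78_20389, with 58.4 ± 52.6 FPKM at 30 °C and 0.260 ± 0.450 FPKM in controls (SD, n = 3 each; log2 change 5.12, SE 0.79, adjusted p = 0.00742 in limma). It also passed for 30 °C against 26 °C 6 h (log2 change 4.69, adjusted p = 0.0351 in limma). Of all gene models tested, 0.651% and 0.246% passed in these comparisons.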

How the data were processed

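RNA from intestine of 12 animals was extracted with Trizol from each individual, and mRNA libraries were made with TruSeq reagents and sequenced on an Illumina HiSeq, per the labels' protocols. The authors deposited FPKM values for 30221 gene models, per the file headers, while aligner, counting tool and build are not given in the sources used here, nor is the strand setting. Multiplied by coding length and divided by the worth of 1 read, 100% of values in every library came out whole within 0.05 of a read, so the reads behind each value were known, and the deposited scaling matched median-of-ratios size factors with a constant of 2815402. Lengths were multiples of 3 in 94.04% of models and are called coding length. A RefSeq gene table matched 0 identifiers, and no sequence was used. Columns of values from other series numbered 0.

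Models averaging 0.5 FPKM or more entered a limma fit (version 3.58.1, R 4.3.3) of log2(FPKM + 1), a scale that understates changes of low genes. A single model held a mean for each of the 4 groups (8 residual and 5.652 prior degrees of freedom), tests were two-sided and p-values were adjusted with Benjamini-Hochberg over all 18729 gene models at 0.05. The code of the fit was tested on simulated data in which only models averaging 5 FPKM or more were changed. That run does not show how the fit performs on scarcer members. Tables were made with Python 3.11.15 and pandas 2.3.3. Thinning drew 1700000 reads per library. Floors of 3 reads cover counting error only, and the bounds set a group mean, not each animal, against the floor. Replicate numbers did not pair the animals. Alternatives were another pseudocount, other filters, a common sum, quantile normalization, voom, a replicate block, only the groups compared, and leaving out each animal.

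Members, lists and both models given with the rule were chosen with earlier results of these data known. Named models are the 2 given with the rule, BSL78_07501 and BSL78_15351, the most abundant of each family (2 in families of over 10 members) and, per comparison, the 3 highest and 3 lowest log2 changes among members whose groups did not overlap; 1 of these is not reported here. Accidental matches to marker words were dropped from the descriptions alone.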

Additional observations from a re-analysis of the deposited data

How the results depend on the processing

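The count of members called was 0 in each comparison and in the F test with a pseudocount of 0.1, without a filter, with models of 5 FPKM or more alone, with a common sum, with quantile normalization and with voom, and it was 0 in each comparison in fits of only the groups compared. Leaving out a single animal gave counts from 0 to 1: without 30 °C animal 3, 1 member (BSL78_02099) passed against control, against 26 °C and in the F test (adjusted p = 0.0272, 0.018 and 0.0479), and no other animal changed a count. The replicate block gave 0 members in each comparison. Deviations of animals with the same number correlated from -0.18 to 0.146, over 0.1 in 1 of 18 pairs, and those with different numbers from -0.115 to 0.177, so the animals share only a number. Signs turned for BSL78_07501 and BSL78_15351, in the comparisons within 26 °C and against control. BSL78_07501 for 48 h against 6 h (-0.78) was 1.02 with voom and ran from -2.47 to 2.25 without single animals, and for 26 °C 6 h against control (1.75) it ran from -1.28 to 3.43. BSL78_15351 for 48 h against 6 h (0.14) was -0.225 with a pseudocount of 0.1 and -0.01 with quantile normalization, and ran from -0.362 to 0.736 without single animals. For 48 h against control (-0.07) it was 0.216, 0.362 and 1.18 with a pseudocount of 0.1, a common sum and voom, and ran from -0.697 to 0.99. For 26 °C 6 h against control (-0.21) it was 0.44 and 0.856 with a pseudocount of 0.1 and voom, and ran from -0.838 to 0.85. The cause was not tested. The settings for the acetylcholinesterase median, the medians of other roles, the bounds without an animal and the count of separated groups were added after seeing the data. Depth limits the scarce members: the median tested member rests on 67 reads.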
